A study of Homo sapiens with 6 samples.

Results

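Start codon windows are the stretches of mRNA around the position where translation of the main reading frame begins. Each window ran from 60 nt before to 60 nt after the first nucleotide of the coding sequence (CDS), which is position 0 here, so that the start codon occupies positions 0, 1 and 2 and the window measures 121 nt. Windows were taken on coding transcripts with at least 1 listed reverse transcription (RT) stop per nucleotide in each of the 4 libraries treated with dimethyl sulfate (DMS). Of 13945 coding transcripts listed in the series, 1065 passed this minimum, 1030 of these were matched to an annotated transcript on GRCh37 (hg19), and 991 windows in 991 genes remained. The lowest density inside the minimum was 1.00 stop per nucleotide and the highest outside was 0.9997. In 646 windows every position was present, and 345 windows were cut short by the 5′ end of the mRNA. The 5′ untranslated regions (UTRs) measured 0 to 1172 nt with a median of 80 nt. The start codon lay in exon 1 in 701 windows (70.7%), in exon 2 in 261 (26.3%) and in a later exon in 29, on 23 chromosomes.

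During translation initiation the small ribosomal subunit binds near the 5′ cap and scans the 5′ UTR for an AUG, which is recognized most readily with a purine 3 nt before it and a G directly after it (the Kozak context). Structure around the start codon can slow this step, and open sequence around start codons is a general feature of efficiently translated mRNAs. DMS methylates unpaired A and C at the face used for base pairing, which stops reverse transcriptase, so that RT stops at A and C report accessible bases. Its adduct at N7 of G does not by itself stop the enzyme.

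The study profiled RT stops in polyA+ RNA of U2OS, an established human osteosarcoma cell line, in 6 libraries, with 1 library per condition and no replicates. In 2 libraries the RNA had no DMS and was reverse transcribed in 150 mM Na+ or 150 mM K+. In 2 further libraries, purified RNA was refolded and treated with DMS in 150 mM K+ or 150 mM Li+, called in vitro K+ and in vitro Li+. The last 2 came from living cells treated with 8% DMS for 5 min, either in regular medium (unstressed cells) or after 2 h in HBSS, a balanced salt solution without amino acids or serum (starved cells), and all 4 DMS libraries were reverse transcribed in 150 mM K+. The sample labels and the file names of the 2 libraries without DMS contradict each other on the cation. The labels are followed here, these libraries are called "labelled K+" and "labelled Na+", and any direction drawn between them holds for the labels only.

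The deposited counts summed to between 12999691 (unstressed cells) and 35371061 (labelled K+) stops per library, and only positions with at least 3 stops were listed. The mesenchymal and bone matrix genes VIM, FN1, SPARC and COL1A1 had 1732 to 125127 stops in every library. From unstressed to starved cells FN1 went from 3175 to 1732, SPARC from 15675 to 7280 and COL1A1 from 8927 to 3020 stops, although the starved library was deeper (24014417 stops), while VIM went from 45404 to 71722. The part of this difference in the values below was not tested. The leukocyte gene PTPRC had 0 to 5, the endothelial gene PECAM1 0 to 9 and the epithelial gene EPCAM 9 to 67, and the hepatocyte gene ALB was not listed. Because no condition was replicated, no test between conditions was possible. Intervals given below are 95% intervals over windows or of counting, cover the spread over windows or counting error only, and say nothing about the spread between cultures.

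The windows held 7.09% (unstressed cells) to 8.85% (starved cells) of the stops on their transcripts. Their median GC content was 61.2%, against 48.7% in the interior of the coding sequences. At A and C, windows received 75.4% of the stops in vitro in K+ and 75.4% in Li+, 82.9% in unstressed cells and 70.9% in starved cells, against 79.5%, 78.8%, 85.9% and 75.3% over their whole transcripts, which had a similar order. Without DMS they received 52.1% (labelled K+) and 51.3% (labelled Na+), while A made up 19.5% and C 29.5% of the window letters. The share at G was 14.2% in unstressed cells (Wilson interval 14.1 to 14.3%) and 23.7% in starved cells (23.6 to 23.8%).

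The readout used below is the relative stop count, which is the stop count at a nucleotide divided by the deposited mean count of the same base in the same transcript and library. A value of 1 is that deposited mean, called the transcript average here, and positions not listed count as 0. The values themselves therefore need not average 1 over whole transcripts. At A they averaged 1.04 to 1.09 in the 6 libraries. At U they averaged 1.03 without DMS (labelled K+), 0.616 in vitro in K+, 0.433 in unstressed cells and 0.695 in starved cells. Relative counts were averaged over windows. The start codon A is an A in every window. Among 222 windows with at least 10 stops at this A in each DMS library, those with the highest and the lowest relative count there are shown with their sequences. The list gives 12 letters of the mRNA before and 9 after the start codon, which is in capitals, first for the 5 highest and then for the 5 lowest.
COX16: aagagttcactcATGtttgcaccc
RPL27A: tgggctgccaacATGccatccaga
RPS29: gctgagagcaagATGggtcaccag
RPS23: ggcgccgacaggATGggcaagtgt
RPL13: ccgtaggcagccATGgcgcccagc
RPS13: atcgccgccatcATGggtcgcatg
RPL4: cctctctccgccATGgcgtgtgct
RPS25: ccgagcttcgcaATGccgcctaag
RPL6: ccatcttgcaagATGgcgggtgaa
YBX1: atcaccgcaaccATGagcagcgag
Their start codons begin on GRCh37 at position 70826304 of chromosome 14 (minus strand), 8704361 of chromosome 11 (plus), 50053064 of chromosome 14 (minus), 81574142 of chromosome 5 (minus), 89627368 of chromosome 16 (plus), 17099188 of chromosome 11 (minus), 66797128 of chromosome 15 (minus), 118888994 of chromosome 11 (minus), 112846460 of chromosome 12 (minus) and 43148237 of chromosome 1 (plus), in the order listed. All lie in exon 1 except that of RPL6, which lies in exon 2.

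Over all windows, the A of the start codon was above the transcript average of A in vitro and near or below it in cells. Its mean relative stop count over 991 windows was 1.21 ± 0.047 (SE over windows) in vitro in K+ and 1.25 ± 0.047 in Li+. It was 0.961 ± 0.050 in unstressed cells and 0.788 ± 0.038 in starved cells. Without DMS it was 0.937 ± 0.038 (labelled K+) and 0.926 ± 0.042 (labelled Na+), so unstressed cells differed from untreated RNA by less than 1 SE. Matched by window, starved cells were 0.841-fold the untreated RNA labelled K+ (interval 0.789 to 0.894) and unstressed cells 1.03-fold (0.939 to 1.11). On the 414 windows with at least 3 stops per nucleotide, unstressed cells were at 1.21 and starved cells at 1.07. The side of 1 also turned with the distance from the start codon to the last listed position of the transcript. In the nearest 331 windows the start codon A was at 1.39 ± 0.10 in unstressed and 1.15 ± 0.079 in starved cells, in the middle 330 at 0.806 ± 0.055 and 0.702 ± 0.046, and in the farthest 330 at 0.683 ± 0.089 and 0.514 ± 0.063. In vitro in K+ these 3 groups were at 1.48, 1.05 and 1.10 and without DMS (labelled K+) at 1.15, 0.852 and 0.806. The start codon A had a listed stop in 859 windows in Li+, 807 in vitro in K+, 643 in unstressed cells and 652 in starved cells. It was listed in all 6 libraries in 445 windows (44.9%) and in no library in 87 (8.78%). Medians were lower than means in each library, at 0.933 in vitro in K+, 0.642 in unstressed cells and 0.512 in starved cells, since a minority of windows had high values. Relative counts above 2 were found in 153 windows (15.4%) in vitro in K+, 122 (12.3%) in unstressed cells and 78 (7.87%) in starved cells. Among the A of internal in-frame AUG codons, described next, the shares above 2 were 12.9%, 13.6% and 9.76%, so the in vivo shares at start codons were near this reference. Without DMS (labelled K+ and Na+) the shares were 11.8% and 10.7% at start codons and 10.2% and 10.0% at these internal codons.

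The same 3 letters inside the coding sequence served as the reference. Internal in-frame AUG codons of the same transcripts, at least 120 nt after the start codon and 60 nt before the stop codon, numbered 4815. The A of the start codon was 1.07-fold the A of internal AUG codons in vitro in K+ (interval 0.981 to 1.15) and 1.06-fold in Li+ (0.981 to 1.15). In unstressed cells it was 0.942-fold (0.841 to 1.04) and in starved cells 0.835-fold (0.753 to 0.918). Which intervals lay wholly on one side of 1 depended on the setting. On complete windows unstressed cells were below it as well (0.818, 0.697 to 0.939), as they were with transcript means from listed stops (0.855, 0.772 to 0.938). With a transcript minimum of 3 stops per nucleotide both in vitro libraries were above it (1.23 and 1.20). Against 8906 out-of-frame AUG codons the values were 1.05 in vitro in K+, 0.989 in unstressed cells and 0.871 (0.786 to 0.955) in starved cells. Among 589 transcripts with at least 3 internal in-frame AUG codons, the start codon A was above the mean of its own internal AUG codons in 208 (35.3%) in vitro in K+, 124 (21.1%) in unstressed cells and 110 (18.7%) in starved cells. Without DMS it was above in 186 (31.6%, labelled K+) and 182 (30.9%, labelled Na+). A single skewed position can lie below a mean of 3 or more in most transcripts even where the averages are alike. With the minimum of 3 stops per nucleotide the ratio to internal in-frame AUG codons in starved cells was on the other side of 1, at 1.04, and that in unstressed cells at 1.05. Starved cells were also above 1, at 1.11, when the single accession that RefSeq gives to another gene than ATP5MF, its match, was kept (unstressed cells 1.28), with relative counts of 143 to 344 at its start codon A.

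Read against the other letters of the same window, the start codon A in unstressed cells stood out more than in any other library. The other A of the windows had a mean relative count of 0.707 in unstressed cells, so that the start codon A was 1.36-fold higher. The same ratio was 1.10 in starved cells, 1.11 in vitro in K+ and 1.13 in Li+. Without DMS it was 0.957 (labelled K+) and 0.935 (labelled Na+). This ratio was not particular to start codons. The A of internal in-frame AUG codons was 1.24-fold the A of the coding interior in unstressed cells, 1.08-fold in starved cells, 1.00-fold in vitro in K+ and 0.891-fold in untreated RNA (labelled K+). In unstressed cells both kinds of AUG codon thus had more stops at their A than the mean A of their region, the windows or the coding interior.

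**Figure D1:**
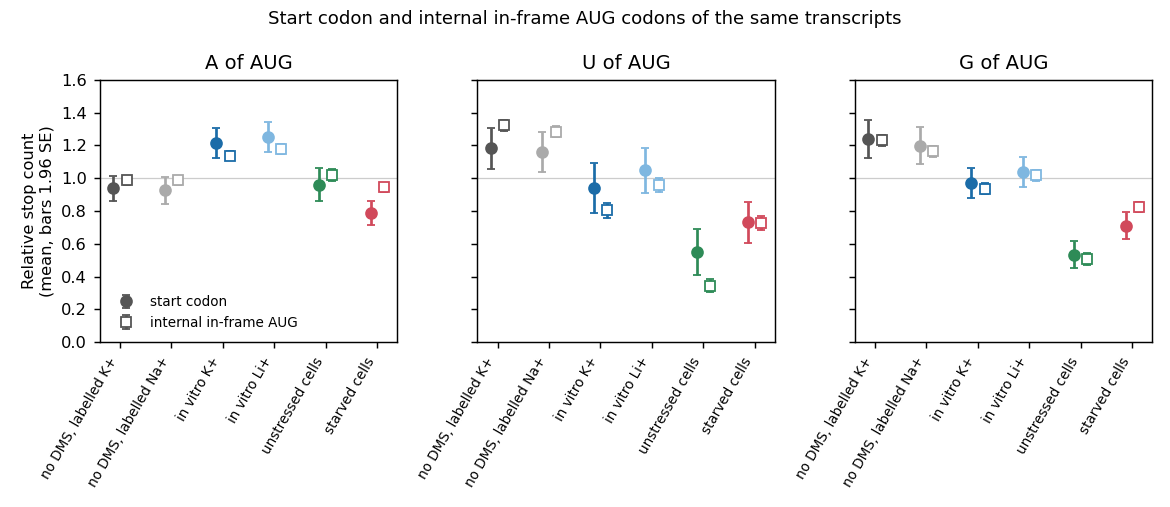
Mean relative stop count (1 is the transcript average of the same letter) at the A, U and G of the start codon (filled circles, up to 991 windows) and of internal in-frame AUG codons (open squares, up to 4815 codons) in the 6 libraries, with bars of 95% intervals over windows or codons. The start codon A sits at 1.21 and 1.25 in vitro and at 0.961 and 0.788 in unstressed and starved cells. The U and G are highest without DMS, as U and G are over whole transcripts.

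The direct comparison of libraries gave the same order. The start codon A in starved cells was 0.820-fold that in unstressed cells (interval 0.706 to 0.934 with the libraries taken as independent, 0.772 to 0.868 matched by window), and the A of internal AUG codons was 0.925-fold. Unstressed cells against in vitro K+ gave 0.793-fold (0.693 to 0.894, matched 0.748 to 0.838) at the start codon and 0.897-fold at internal AUG codons. Starved cells against in vitro K+ gave 0.651-fold (0.572 to 0.729, matched 0.617 to 0.684) and 0.830-fold. In vitro K+ against Li+ gave 0.968-fold (0.865 to 1.07, matched 0.940 to 0.996) at the start codon and 0.966-fold at internal AUG codons, so that only the matched interval lay below 1.

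The U and G of the start codon, which DMS does not mark at the pairing face in the same way, had another order. Without DMS (labelled K+) the U was at 1.18 ± 0.063 and the G at 1.24 ± 0.059. In unstressed cells the U was at 0.548 ± 0.072 and the G at 0.532 ± 0.042, and in starved cells at 0.731 ± 0.063 and 0.710 ± 0.042. Over whole transcripts U and G were also highest without DMS and lowest in unstressed cells (0.433 and 0.703). This order was therefore not particular to the start codon. The internal AUG codons had 0.344 at U and 0.508 at G in unstressed cells and 0.724 and 0.825 in starved cells. The U of the start codon was therefore 1.59-fold its internal counterpart in unstressed cells (1.15 to 2.04) and 1.01-fold in starved cells (0.827 to 1.19). A stop at this U was listed in 136 windows (13.7%) in unstressed cells, so this mean rests on few windows.

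The mRNAs at both ends of the range of the start codon A were taken from 222 windows with at least 10 stops at the start codon A in each DMS library, and the DMS values chose them, so they are given as a description. RPS29, a protein of the small ribosomal subunit, had 952 stops at this A in vitro in K+, 1292 in Li+, 918 for unstressed cells and 2993 in starved cells, with relative counts of 12.4, 11.9, 13.0 and 14.1. Without DMS its relative counts were 4.84 (labelled K+) and 5.16 (labelled Na+), from 281 and 294 stops. All 4 DMS libraries were thus more than 2-fold above both untreated ones at this nucleotide.

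RPL27A, of the large subunit, had relative counts of 14.2 in vitro in K+, 17.5 in Li+, 13.1 for unstressed cells and 10.3 in starved cells, and 9.26 and 10.6 without DMS (labelled K+ and Na+). RPS23, of the small subunit, had 9.17, 11.3, 14.5 and 9.62 in the same order, and 2.54 and 3.66 without DMS. RPL13, of the large subunit, had 7.85, 7.40, 8.48 and 8.17, and 7.23 and 12.8 without DMS. The untreated RNA of RPL13 and RPL27A thus came near or above the lowest treated value at this A, whereas in RPS29 and RPS23 the DMS libraries were higher. The whole windows of these mRNAs were raised in each library, with or without DMS. The last listed position lay 4505 nt after the start codon in RPL27A, 3172 nt in RPS23, 2136 nt in RPL13 and 659 nt in RPS29, and the part of this extent in the transcript average was not tested. Their level at A and C, defined below, was 5.81 to 8.36 in RPL27A, 4.89 to 6.03 in RPS23, 5.05 to 6.16 in RPS29 and 3.25 to 4.86 in RPL13. The U of the start codon was above the A in each library in RPL27A (12.1 to 26.7) and RPS23 (21.15 to 34.7).

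COX16, an assembly factor of cytochrome c oxidase, had 21.1 in vitro in K+, 16.9 in Li+, 24.9 for unstressed cells and 13.0 for starved cells, and 6.11 and 12.01 without DMS. These counts were small, 26 stops in unstressed cells (exact Poisson interval 17.0 to 38.1) and 37 in starved cells (26.1 to 51.0). The last listed position of COX16 lay 140 nt after the start codon, and the part of this extent in its transcript average was not tested. Its A and C level over the window was 9.55 to 11.1 in the 6 libraries.

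At the low end, the start codon A of RPS13 had 34 stops in vitro in K+ (relative count 0.225), 40 in Li+ (0.186), 20 in unstressed cells (0.172) and 15 in starved cells (0.040), and 3 stops in each untreated library. RPL4, of the large subunit, had 0.325, 0.324, 0.204 and 0.125 in the 4 DMS libraries in the same order, and 0.161 and 0.175 without DMS. RPS25 was between 0.347 and 0.445 in all 6 libraries. YBX1, an RNA-binding protein of cytoplasmic mRNPs, had 0.550 in vitro in K+, 0.589 in Li+, 0.315 for unstressed cells and 0.289 for starved cells. RPL6 differed from the others in that its start codon A was at 1.32 and 1.31 without DMS and at 0.459 in vitro in K+, 0.588 in Li+, 0.210 for unstressed cells and 0.375 for starved cells. HSP90AB1 and ATP5PF, named below for their windows, had no stop listed at the start codon A in any library, so fewer than 3 were counted in each.

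**Figure D2:**
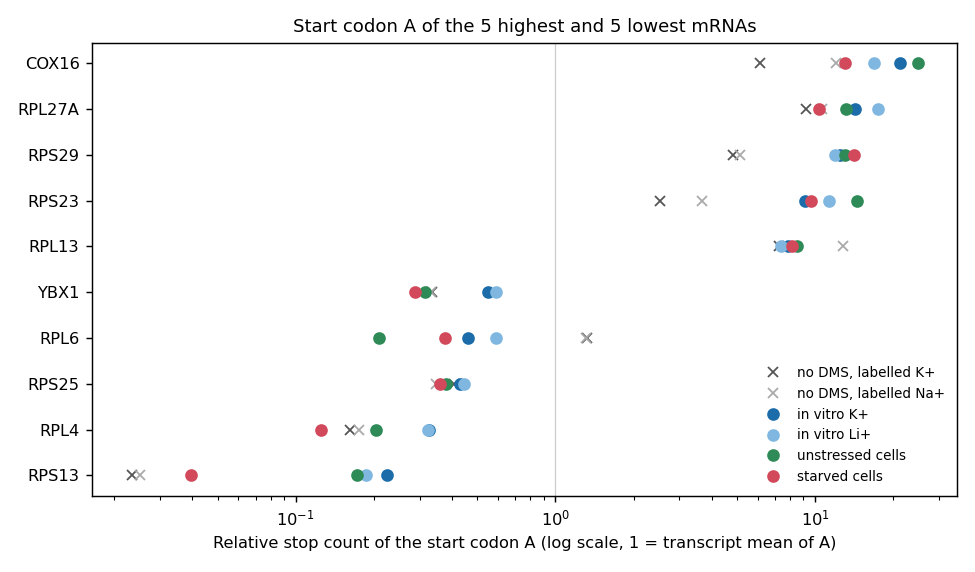
Relative stop count of the start codon A (log scale, 1 is the transcript average of A) for the 5 mRNAs with the highest and the 5 with the lowest mean over the DMS libraries, with circles for DMS libraries and crosses for libraries without DMS. They were ranked among 222 windows with at least 10 stops at this A in each DMS library. RPS29 and RPS23 have their crosses (2.54 to 5.16) well left of their circles (9.17 to 14.5), and RPL6 has its crosses (1.31 and 1.32) to the right.

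The letters next to the start codon carried a profile that was present in untreated RNA. At C, the mean relative count was 2.04 ± 0.13 at position -4 and 1.78 ± 0.10 at position -1 in untreated RNA (labelled K+), the highest of 117 ranked positions. It was 0.509 at -2 and 0.398 at position 3, the lowest of them. The same peaks were at 1.45 and 1.64 in vitro with K+, 1.58 and 1.88 with Li+, 0.800 and 1.07 for unstressed cells and 1.02 and 0.992 in starved cells. The library labelled Na+ had 2.01 and 1.73. Each DMS library was also divided by the library labelled K+. Untreated A was itself at 1.56 at -4 and at 0.824 at -2, and the part of this in the ratio was not tested. At A, in vitro K+ over untreated RNA was 1.62 at position -2 (328 windows), 1.29 at -3 (506), 1.29 at 0 and 1.29 at 3 (166), and 0.869 at -4 (206).

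Of the A from -6 to 6, those with the most stops over untreated RNA in unstressed cells were at -2 (1.05-fold) and at 0 (1.03-fold). The A at -3, the purine of the Kozak context, was at 0.822-fold, and A at -1 at 0.578-fold. Against in vitro K+, unstressed cells were at 0.635-fold at -3, 0.649-fold at -2, 0.565-fold at -1, 0.632-fold at 3 and 0.793-fold at the start codon A. The start codon A was thus closer to its in vitro level than the A at these nearest positions. The A at 4 was almost level with it, at 0.777-fold (170 windows). The C at 3 and at 6 were higher, at 0.801-fold and 0.935-fold. Starved against unstressed cells gave 1.05-fold at -3, 0.885-fold at -2, 0.820-fold at 0 and 1.07-fold at 3.

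**Figure D3:**
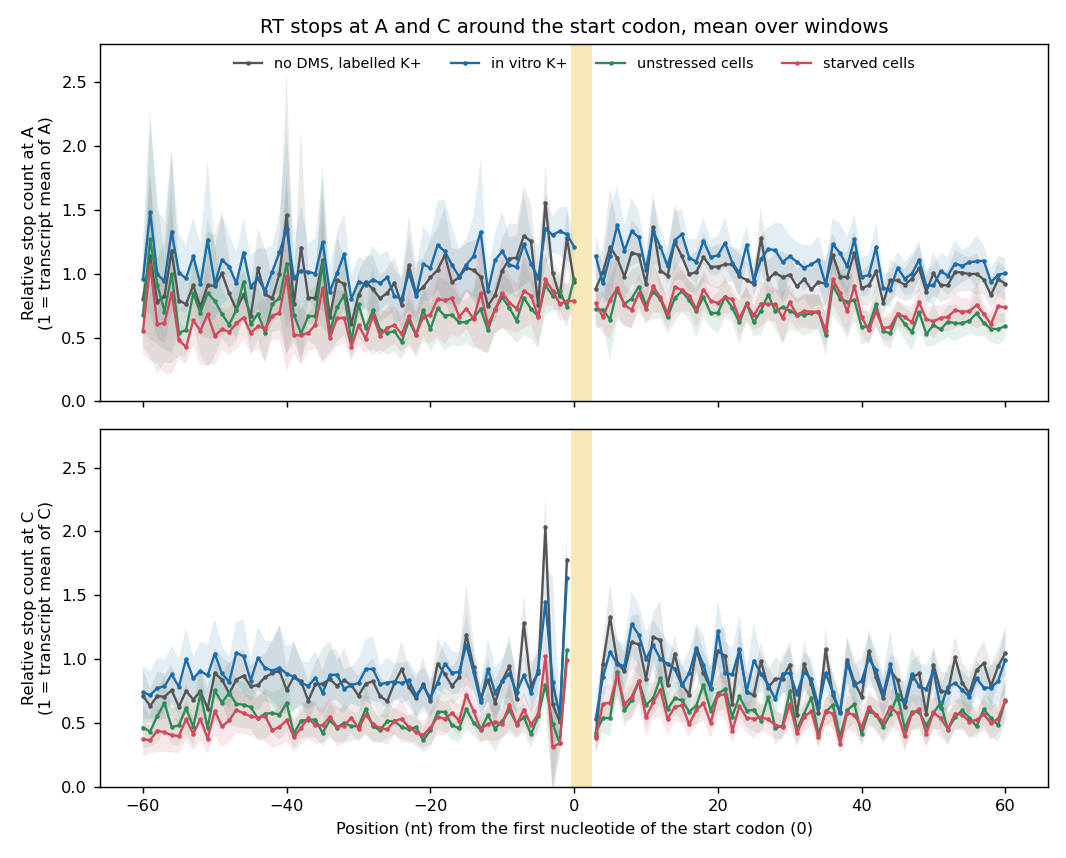
Mean relative stop count at A (upper panel) and C (lower panel) by position in nt from the first nucleotide of the start codon, in 4 of the libraries, with bands of 95% intervals and only positions with at least 50 windows. The start codon is shaded and holds no A or C after position 0, and C peaks at -4 and -1 in the library without DMS (2.04 and 1.78) and is lower in cells.

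The Kozak context itself was common. A purine stood at -3 in 919 windows, A in 506 (51.1%) and G in 413 (41.7%), and G stood at position 3 in 539 (54.4%). With A at -3 the start codon A was at 1.26 ± 0.064 in vitro in K+, 0.965 ± 0.069 in unstressed cells and 0.850 ± 0.056 in starved cells. With G at -3 it was at 1.16 ± 0.059, 0.942 ± 0.058 and 0.735 ± 0.049, so these contexts differed by less than 2 SE. With a purine at -3 and G at 3 the values were 1.17, 0.967 and 0.798 over 503 windows, and the 70 windows without a purine at -3 had 1.15 ± 0.32, 1.07 ± 0.37 and 0.677 ± 0.20. An AUG before the start codon was present in 67 windows (6.76%). The A of these 72 upstream AUG codons was at 0.819 ± 0.22 in vitro in K+, 0.622 ± 0.19 in unstressed cells and 0.503 ± 0.13 in starved cells, against 1.09, 0.721 and 0.688 for all A before the start codon. It was also lower without DMS, at 0.580 ± 0.14 (labelled K+) and 0.518 ± 0.12 (labelled Na+), against 0.957 and 0.963.

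Short 5′ UTRs went with more stops at the start codon. With a 5′ UTR under 60 nt (345 windows) the start codon A was at 1.47 ± 0.095 in vitro in K+, 1.28 ± 0.093 in unstressed cells and 1.04 ± 0.080 in starved cells. With 60 nt or more but under 200 nt (519 windows) it was at 1.08 ± 0.057, 0.816 ± 0.067 and 0.679 ± 0.042, and with 200 nt or more (127 windows) at 1.03, 0.679 and 0.556. The libraries without DMS shared this order, with 1.15, 0.833 and 0.785 for the label K+. Ribosomal protein mRNAs took part in it, but the order was present without them, at 1.10 ± 0.074 for 298 other windows with a short 5′ UTR and 0.744 ± 0.057 for 619 other windows with a longer one in unstressed cells. GC content moved with it too. Windows below the median GC content had 1.44 in vitro in K+, 1.13 in unstressed cells and 1.03 in starved cells, and the others 1.00, 0.811 and 0.564. Untreated RNA (labelled K+) shared this difference, at 1.20 for windows below the median GC content and 0.699 for the others.

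The coding side and the 5′ side of the windows differed little at A and C. In vitro in K+, A was at 1.09 on the 5′ side and 1.10 on the coding side, and C at 0.886 and 0.882. In unstressed cells A was at 0.721 and 0.698 and C at 0.546 and 0.599. The 5′ UTR beyond the windows was lower in all libraries, with A at 0.452 without DMS (labelled K+), 0.540 in vitro in K+, 0.321 in unstressed cells and 0.250 in starved cells. The 3′ UTR was near the average without DMS (A at 1.05) and in vitro (1.02), and above it in both in vivo libraries (1.32 in each). Within the coding side, A at the first codon position was higher than at the second in each of the 6 libraries, at 1.17 against 1.04 in vitro in K+, 0.750 against 0.667 in unstressed cells and 1.02 against 0.941 without DMS (labelled K+).

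For each window, the A and C level is its stops at A and C divided by the stops that the transcript averages of A and C would give. Against the coding interior of its own transcript, cut into consecutive tiles of 121 nt, the median window was lower in each library. It was 0.785-fold in vitro in K+, 0.796-fold in Li+, 0.606-fold in unstressed cells, 0.570-fold in starved cells, and 0.685-fold (labelled K+) and 0.703-fold (labelled Na+) without DMS. The window was below its own interior in 593 of 734 transcripts (80.8%) in unstressed cells and in 615 of 861 (71.4%) in vitro in K+.

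Between libraries, the A and C level was compared as a log2 ratio in windows with at least 20 stops at A and C in both. Unstressed cells were lower than in vitro K+, with a median log2 ratio of -0.61 (interval -0.69 to -0.55) over 832 windows, of which 82 (9.86%) were above 0. At least 2-fold lower were 262 windows (31.5%), against 28.9% of 4214 interior tiles of the same transcripts, and at least 2-fold higher were 0 windows, against 0.522% of tiles. Each window against the tiles of its own transcript gave a median difference of -0.39 (-0.43 to -0.32) in 731 transcripts, with the window above its tiles in 163.

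That difference moved with the distance to the 3′ end of the transcript. The distance from the start codon to the last listed position was used to order the windows. In the nearest 331 windows (median 601 nt) the median log2 ratio was -0.28, and 20 of 322 (6.21%) were at least 2-fold lower. In the middle 330 (median 1169 nt) it was -0.74, with 94 of 295 (31.9%) lower, and in the farthest 330 (median 2242 nt) it was -1.37, with 148 of 215 (68.8%) lower. The median A and C level itself was 0.797, 0.441 and 0.205 in unstressed cells and 0.985, 0.797 and 0.744 in vitro in K+. In cells, fewer stops were thus listed toward the 5′ end of long transcripts, and the part of this in any window's ratio was not tested.

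Starved and unstressed cells were close to each other in most windows. The median log2 ratio was -0.04 (-0.07 to 0.00) over 771 windows, with 361 (46.8%) above 0. It was -0.08 (-0.11 to -0.05) with positions not listed counted as 1 and -0.11 (-0.16 to -0.07) with the libraries thinned to equal depth, and on complete windows it was -0.0043 (-0.05 to 0.04). At least 2-fold higher in starved cells were 27 windows (3.50%), against 6.86% of 4080 interior tiles, and at least 2-fold lower were 34 (4.41%), against 3.75% of tiles. Against the tiles of their own transcript, windows were lower by a median of -0.13 (-0.17 to -0.08), and 267 of 669 were above their tiles. Over the 3 distance groups the median was -0.04, -0.10 and 0.08. Windows below the median GC content had a median of 0.09 and the others -0.21. In vitro K+ against Li+ gave -0.04 (-0.05 to -0.02) over 961 windows, with 1 window at least 2-fold higher and 3 at least 2-fold lower, against 0% and 0.0219% of 4568 tiles. This median turned to 0.02 with positions not listed counted as 1 and to 0.01 with thinned libraries, so its direction depends on these settings.

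**Figure D4:**
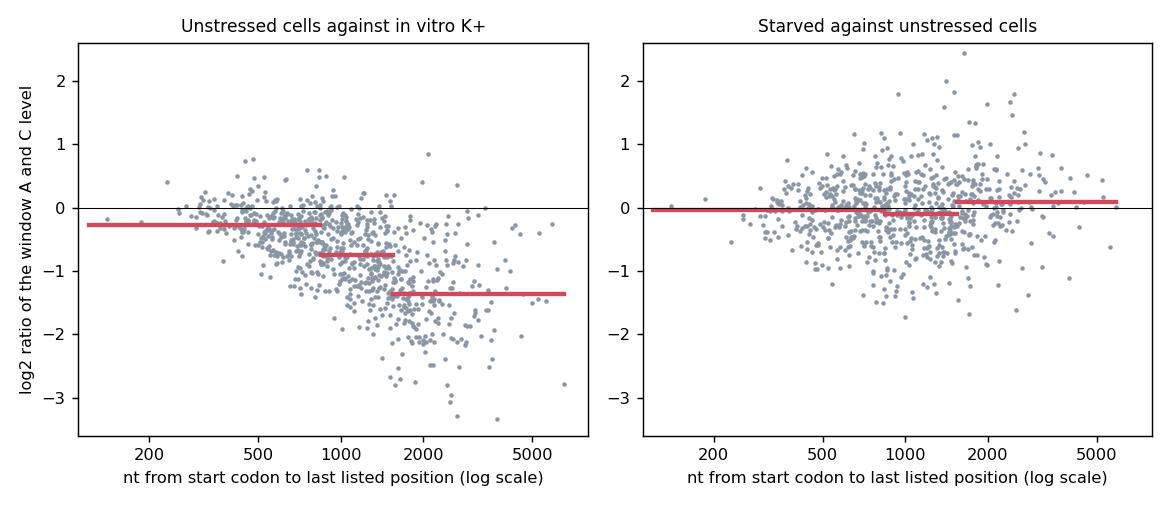
Log2 ratio of the window A and C level, unstressed cells against in vitro K+ (left) and starved against unstressed cells (right), by the distance in nt from the start codon to the last listed position of the transcript (log scale), with 1 point per window and a red line at the median of the nearest, middle and farthest windows. The medians are -0.28, -0.74 and -1.37 on the left and -0.04, -0.10 and 0.08 on the right, and NME2, whose last listed position precedes its start codon, is not drawn.

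Ranked by the lowest of the 4 DMS libraries, the 8 windows with the most stops belonged to ribosomal protein mRNAs and GAPDH, the glycolytic enzyme. They were RPLP1, RPS29, GAPDH, RPL38, RPS12, RPS18, RPL37 and RPLP0. RPLP1, a protein of the ribosomal stalk, had 18833 stops in its window in vitro in K+, 24062 in Li+, 20037 for unstressed cells and 39122 for starved cells. Its A and C level was 0.941, 0.863, 0.795 and 0.969, and its start codon A was at 1.01, 0.994, 1.46 and 1.23. RPLP1 and RPS29 (6.16 in starved cells against 5.53 to 5.97) were the only 2 of the 8 windows whose level in starved cells was above that in the other DMS libraries. GAPDH had 23470, 29021, 11934 and 17694 stops and A and C levels of 1.06, 1.02, 0.705 and 0.676, so that both in vivo libraries were lower. RPL37 was the only one above its in vitro K+ level in unstressed cells (4.61 against 4.02), and RPS12 was at 1.02 in unstressed as in starved cells.

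The widest differences between starved and unstressed cells were read in 463 windows with at least 100 stops at A and C in both, and these values chose the genes. HSP90AB1, a cytosolic HSP90 chaperone, was the highest, with A and C levels of 1.44 in vitro in K+, 1.39 in Li+, 0.207 for unstressed cells and 0.567 for starved cells, a log2 ratio of 1.45 from 234 and 350 stops for unstressed and starved cells. ANKRD1, an ankyrin-repeat cofactor of transcription, had 1.01, 0.984, 0.320 and 0.811 (log2 ratio 1.34). CBX3, a heterochromatin protein, had 0.935, 0.808, 0.366 and 0.922 (1.33). HNRNPK, an RNA-binding protein, had 1.28, 1.32, 0.223 and 0.511 (1.20), and MYL12B, a myosin regulatory light chain, had 0.650, 0.647, 0.277 and 0.596 (1.10). In these 5 windows unstressed cells were the low sample of the 4, and in CBX3 the starved level lay between the in vitro levels. Selection for a high ratio of starved to unstressed cells favours a low value in unstressed cells. HSP90AB1, ANKRD1, CBX3 and HNRNPK were among the windows farthest from the 3′ end (1715 to 2707 nt), and MYL12B among the nearest (835 nt). Over all of the farthest windows the median log2 ratio of unstressed cells against in vitro K+ was -1.37.

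At the other end, CSNK2B, the regulatory subunit of casein kinase 2, had 1.06 in vitro in K+, 1.13 in Li+, 0.892 for unstressed cells and 0.445 for starved cells (log2 ratio -1.004). NDUFAF8, an assembly factor of respiratory complex I, had 0.429, 0.402, 0.523 and 0.266 (-0.98). ATP5PF, a subunit of ATP synthase, had 0.894, 0.818, 1.53 and 0.783 (-0.96). COX6A1, a subunit of cytochrome c oxidase, had 0.777, 0.781, 1.09 and 0.564 (-0.95), and MRPL51, a mitochondrial ribosomal protein, had 0.458, 0.461, 0.581 and 0.310 (-0.91). Selection for a low ratio of starved to unstressed cells favours a high value in unstressed cells. All 5 windows were among the nearest to the 3′ end (467 to 763 nt), where 18.3% of windows had unstressed cells above in vitro K+, against 9.86% of all.

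**Figure D5:**
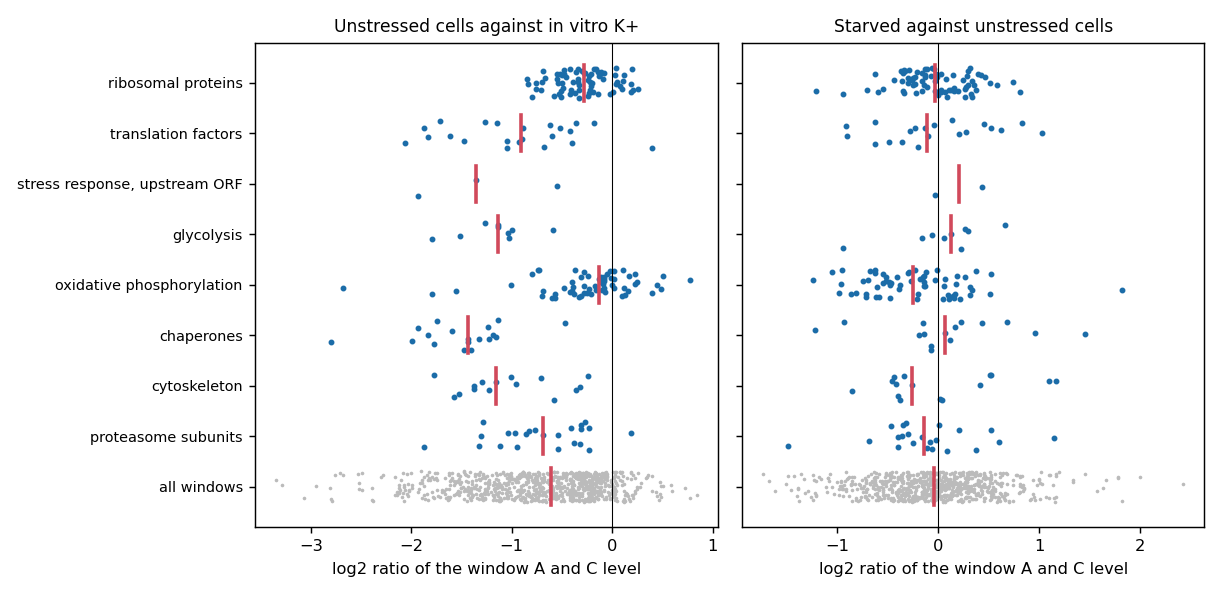
Log2 ratio of the window A and C level for the windows of 8 gene lists and for all windows, unstressed cells against in vitro K+ (left) and starved against unstressed cells (right), with 1 point per window, scattered vertically for display, and a red bar at the median. On the left the chaperones lie lowest (median -1.44) and oxidative phosphorylation highest (-0.13), and on the right oxidative phosphorylation lies at -0.25 and all windows at -0.04.

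Ribosomal protein mRNAs, which begin with a terminal oligopyrimidine tract at the cap and are translated in step with growth signals, had 74 windows. Their start codon A was at 2.26 ± 0.30 in vitro in K+, 2.34 ± 0.33 in Li+, 2.20 ± 0.33 for unstressed cells and 2.13 ± 0.29 for starved cells, and at 2.17 ± 0.26 and 2.28 ± 0.30 without DMS (labelled K+ and Na+). The medians were lower, at 1.74, 1.71, 1.40, 1.51, 1.42 and 1.49 in the same order, and RPS23, RPL27A, RPS29 and RPL13 had the highest values in unstressed cells, from 8.48 to 14.5. In the other 917 windows the mean was at 1.13, 1.16, 0.861, 0.680, 0.838 and 0.817 in the same order. The median log2 ratio of the window level was -0.28 for unstressed cells against in vitro K+ (0 of 73 at least 2-fold lower, 31.5% over all windows and 6.21% over the nearest) and -0.03 for starved against unstressed cells. Of these windows, 57 were among the nearest to the 3′ end and 4 among the farthest, RPL27A, RPS23 and RPL13 included.

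Nuclear-encoded genes of oxidative phosphorylation had 63 windows. Against in vitro K+ their median in unstressed cells was -0.13, with 17 of 63 above 0 (9.86% over all windows) and 4 at least 2-fold lower (31.5%, and 6.21% over the nearest windows). Starved against unstressed cells gave -0.25, with 19 of 62 above 0 (46.8% over all windows), 1 at least 2-fold higher (3.50%) and 2 at least 2-fold lower (4.41%), while the coding interior of the same transcripts was at 0.00 (43 transcripts). ATP5F1B, the catalytic beta subunit of ATP synthase, went from 0.292 in unstressed to 0.123 in starved cells (-1.24), and SDHB, the iron-sulfur subunit of complex II, from 0.812 to 0.392 (-1.05). UQCRC2, a core subunit of complex III, had the opposite difference, 0.150 to 0.530 (1.82). The start codon A of the list was at 1.49 in vitro in K+, 1.70 in unstressed cells and 1.20 in starved cells. Of the 63 windows, 41 were among the nearest to the 3′ end.

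Chaperones had 21 windows. In unstressed cells 17 of 18 were at least 2-fold below in vitro K+ (31.5% over all windows), with a median of -1.44, while the coding interior of these transcripts was at -0.34. The single exception was HSPB1, a small heat shock protein (1.06 against 1.47). Of these windows, 19 were among the farthest from the 3′ end, and HSPB1 (732 nt) was the only one among the nearest. Over all of the farthest windows 68.8% were at least 2-fold lower and the median was -1.37. Starved against unstressed cells gave a median of 0.07 over 15 windows, with 8 above 0 (46.8% over all windows). HSPA8, the constitutive cytosolic HSP70, was at 0.432 in unstressed and 0.412 in starved cells, CCT5, of the chaperonin that folds tubulin and actin, at 0.677 and 0.610, and PDIA6, a protein disulfide isomerase, at 0.478 and 0.205.

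Translation factors had 27 windows, with medians of -0.91 (unstressed against in vitro K+, 10 of 22 at least 2-fold lower, 31.5% over all windows) and -0.11 (starved against unstressed, 8 of 20 above 0, 46.8% over all windows). EEF2, the translocation factor, was at 1.33 in vitro in K+, 0.406 in unstressed and 0.627 in starved cells, and EIF4A2, an RNA helicase of the cap-binding complex, at 0.566, 0.155 and 0.316. EIF3G, a subunit of eIF3, was at 1.46, 1.14 and 0.605. Glycolysis had 10 windows, with medians of -1.13 (7 of 9 at least 2-fold lower, 31.5% over all windows) and 0.13 (6 of 9 above 0, 46.8% over all windows). LDHA, lactate dehydrogenase A, was at 0.952, 0.332 and 0.399. Of these windows, 14 of the 27 and 6 of the 10 were among the farthest from the 3′ end, where 68.8% of all windows were at least 2-fold lower.

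The cytoskeleton list had 15 windows, with medians of -1.15 (9 of 15 at least 2-fold lower, 31.5% over all windows) and -0.26 (7 of 15 above 0, 46.8% over all windows). Of these windows, 5 were among the farthest from the 3′ end and 6 among the nearest. ACTB was at 1.66 in vitro in K+, 0.488 in unstressed and 0.365 in starved cells. MYL12A and MYL12B, the 2 windows of 15 at least 2-fold higher in starved cells (3.50% over all windows), encode near-identical light chains. Reads that near-identical genes share were not counted, since unique mapping was required, so the values of these genes, and of actins, tubulins and ribosomal proteins with many pseudogenes, are uncertain. Proteasome subunits had 25 windows, with medians of -0.68 (6 of 23 at least 2-fold lower, 31.5% over all windows) and -0.14 (7 of 22 above 0, 46.8% over all windows), and 6 were among the farthest from the 3′ end and 3 among the nearest. PSMB6, a catalytic subunit of the core, was at 0.444, 0.506 and 0.180. Only 4 of 25 genes of the integrated stress response list had a window, with medians of -1.35 (2 of 3 at least 2-fold lower, 31.5% over all windows) and 0.20 (1 of 2 above 0, 46.8% over all windows). ATF4, the transcription factor whose translation is set by upstream reading frames, was at 1.33 in vitro in K+, 0.912 in unstressed and 0.891 in starved cells, and ODC1, ornithine decarboxylase, at 1.27, 0.496 and 0.672.

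Strong RT stops at G without DMS, with a relative count of at least 10, were present in windows of both untreated libraries but differed in number. The library labelled Na+ had 167 of 34933 G in 71 windows, and the library labelled K+ had 96 in 30 windows. In 39 windows (3.94%), 61 G were strong in the library labelled Na+ and at least 2-fold above the other, and 1 G in 1 window was so in the library labelled K+. Of 4664 coding interior tiles of the same transcripts, where GC content is lower, 1.16% held such a G for the label Na+ and 0.0214% for the label K+. Over all G this is 0.175% in windows and 0.0538% in tiles for the label Na+. By the file names the cations are exchanged. Of the 61, 39 lay on the 5′ side, 22 on the coding side after the start codon and 0 in the start codon. Of all 34933 window G, 16055 lay on the 5′ side, 17887 on the coding side and 991 in the start codon. Some of the 61 were adjacent, such as those at -5, -4 and -3 of PABPC4. Where 20 letters of transcript preceded the stop (58 of the 61), 60.1% of these letters were G, against 33.2% before all window G. The sequences below give those 20 letters, the stop in capitals and the 5 letters after it, for the highest stop of the 8 genes with the most counts at one in the library labelled Na+.
RPS2: ccctggtggccctgggatggGgaacc
SRP72: cgagcggcggcagcggggggGtgtca
U2AF1: gcagcggcggcggcgggtggGaaatg
CNIH4: ggaggaggatggaggcggtgGtgttc
COX4I1: gtagagggcggtcgcggcggGcagtg
SRSF3: gttgggccggaggaaagcggGaagac
PPP1CC: tgcgggagggtcggcggtggGaaggc
LAMTOR5: ccggagtggtcggtgggtggGatgga
RPS2, of the small ribosomal subunit, had 1491 stops at position 58 by the label Na+ and 30 by the label K+. SRP72, of the signal recognition particle, had 1227 and 22 at position 24. U2AF1, a splicing factor that recognizes the 3′ splice site, had 1018 and 5 at position -3. CNIH4 had 897 and 9 at position 12, and COX4I1, of cytochrome c oxidase, 685 and 12 at position -14. SRSF3, a splicing factor, had 557 and 19 at position -59, and PPP1CC, a catalytic subunit of protein phosphatase 1, 495 and 6 at position -7. LAMTOR5, of the lysosomal Ragulator complex, had 483 and 22 at position -1, directly before its AUG. These genes were chosen for this difference. Their start codons begin on GRCh37 at 2014626 of chromosome 16 (minus strand), 57333802 of chromosome 4 (plus strand), 44527604 of chromosome 21 (minus), 224544627 of chromosome 1 (plus), 85834812 of chromosome 16 (plus), 36564540 of chromosome 6 (plus), 111180512 of chromosome 12 (minus) and 110950242 of chromosome 1 (minus).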

How the data were processed

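The authors removed duplicate reads, trimmed molecular barcodes and mapped the rest uniquely and without mismatch to an hg19 transcriptome with Bowtie, whose version is not given in the sources used here. Each deposited file lists, per transcript and nucleotide, the base, the RT stop count as deposited and the ratio of that count to a mean. The deposited ratio was checked to be the count over the mean of the same base in the transcript, whereas the study's methods describe a mean over the whole transcript, and relative counts here, also the minimum of 10 at G, refer to the same-base mean. Rows with fewer than 3 stops are not listed and were set to 0. Transcripts were matched by their listed bases (seeds of 16 letters, at least 80% of bases covered, at least 97% identity) to GENCODE 44 lifted to GRCh37. Matched transcripts left out numbered 20 with no listed base in the window, 10 with differing window bases, 5 with a start codon of no consensus CDS, 3 whose first codon is not ATG and 1 that RefSeq gives to another gene. Another 35 had no match. Of the 991 windows, 19 had a mismatch within this limit. The members, gene lists and tests were chosen with earlier results of these data known. Genes named were the 8 with the most window stops by the lowest of the 4 DMS libraries, the 5 highest and 5 lowest in starved against unstressed cells (at least 100 A and C stops in both), the 5 highest and 5 lowest at the start codon A (at least 10 stops in each DMS library), and members of lists. Other list members, ATP5MF, NME2 and the genes of strong G stops were picked as examples after their values were seen. Means carry the SE over windows, ratios of libraries at the start codon A an interval with and 1 without matching by window, medians order-statistic intervals, shares Wilson intervals and counts exact Poisson intervals, all at 95%. Calculations used Python 3.11.15, numpy 2.4.6, pandas 2.3.3 and scipy 1.17.1, were tested on simulated data, and were repeated under 9 alternatives and 2 more that were added after seeing the data.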

Additional observations from a re-analysis of the deposited data

How the results depend on the processing

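No paired analysis was possible because each condition has 1 library, and for the same reason no replicate could be left out. With a transcript minimum of 3 stops per nucleotide (414 windows) the start codon A was at 1.422 (in vitro K+), 1.433 (in vitro Li+), 1.213 (unstressed cells) and 1.067 (starved cells), and at 1.232, 1.199, 1.047 and 1.039 over internal AUG codons, so both values of starved and of unstressed cells crossed 1. The window level of unstressed cells against in vitro K+ was then -0.4858 and of K+ against Li+ -0.007302 (log2). With complete windows only (646 windows) the start codon A was at 1.072, 1.095, 0.789 and 0.6547, at 0.9578, 0.9455, 0.818 and 0.7312 over internal AUG codons, with both in vitro values now below 1, and the window level of unstressed cells against in vitro K+ was -0.7653. With transcript means from listed stops the start codon A was at 1.044, 1.072, 0.8241 and 0.6632, the in vitro values over internal AUG codons at 0.9961 and 0.9977, and K+ against Li+ at -0.008474. With positions not listed counted as 1 the start codon A in unstressed cells was at 1.035, and the window level was -0.08069 (starved against unstressed), -0.4409 (unstressed against in vitro K+) and 0.0173 (K+ against Li+, now above 0). With the DMS libraries thinned to equal depth it was -0.114, -0.5178 and 0.01071, again above 0 for K+ against Li+. With the accession of another gene kept, an alternative added after seeing the data, the start codon A was at 1.489, 1.562, 1.307 and 1.052, and at 1.31, 1.328, 1.282 and 1.115 over internal AUG codons, so both in vivo libraries again crossed 1. That single accession decides these 8 values. The cause of the other changes was not tested. Of the other values, 45 under alternatives set earlier and 13 under those added moved by less than the spread over windows, and 13 and 1 were equal to the reported value, most of them by construction, since each gene has 1 window and the library of least depth is not thinned. The start codon A in starved cells was below that in unstressed cells, and both below in vitro, under each alternative run. Exchanging the cations of the 2 libraries without DMS exchanges their values. Depth differs between libraries, and 30.1% of window positions were listed in unstressed cells.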
